A study of Mus musculus with 56 samples.

Results

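Visceral adipose tissue (VAT) of mice fed only by day was compared with VAT of mice fed only by night at ZT8, that is 8 h after lights on. The members were the 8 libraries whose labels gave ZT8, out of 56 in the series: 4 from mice on daytime-restricted feeding (DRF) and 4 from mice on nighttime-restricted feeding (NRF). At ZT8 the DRF mice were inside their feeding period and the NRF mice were outside theirs. All mice of both regimens were C57BL/6J females of 9 weeks, given normal chow on a 12 h light and 12 h dark cycle, and had spent 7 days on their regimen. Each library held RNA of a separate mouse, so n = 4 per regimen throughout, and NRF was the reference regimen. No allele, drug or transgene was used, and the labels did not say which visceral depot was taken. The series covered 7 time points, of which ZT20 (8 libraries) is used below as the opposite phase. In bulk tissue, fewer cells of a type and less RNA per cell cannot be told apart.

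White fat stores fatty acids as triglyceride when insulin is high after a meal and releases them when insulin is low and catecholamines rise. The same cells carry a circadian clock, in which BMAL1 (gene Arntl) and CLOCK drive the Period, Cryptochrome and REV-ERB (Nr1d1, Nr1d2) genes that in turn repress them. Sterol and fatty acid synthesis are driven by the SREBP factors, which are processed in the cell when sterol is low or insulin is high.

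The 8 libraries held 33663980 to 40919608 reads on genes, recovered from the deposited values, and 22632 to 24110 genes above 0. Levels below are in CPM, reads of a gene scaled to the size of its library, and are comparable within a gene. Differences are DRF minus NRF in mean log2(CPM + 1) with the SE of the fit, which understates the change of low genes. A gene was called when the Benjamini-Hochberg adjusted p of limma was under 0.05. A pair of libraries stood apart. DRF mouse 1 had a summed level of uterine epithelium markers of 955 CPM, against 76.9 to 89.3 in the other DRF mice and 44.6 to 117 under NRF. Its cadherin Cdh1 stood at 107 CPM, and Cldn4 at 14.0 CPM where 6 of the other 7 libraries had no read. The same library had the lowest sum of adipocyte markers, 8931 CPM against 18639.8 to 25624 in the other 7, while the adipocyte label itself held in all 8, with Adipoq at 1025 CPM or more. NRF mouse 4 had skeletal muscle markers at 715 CPM, against 11.6 to 95.0 CPM elsewhere, with all 11 measured markers highest in that library. Each result below was therefore repeated on the other 6 libraries, 3 per regimen.

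**Figure D1:**
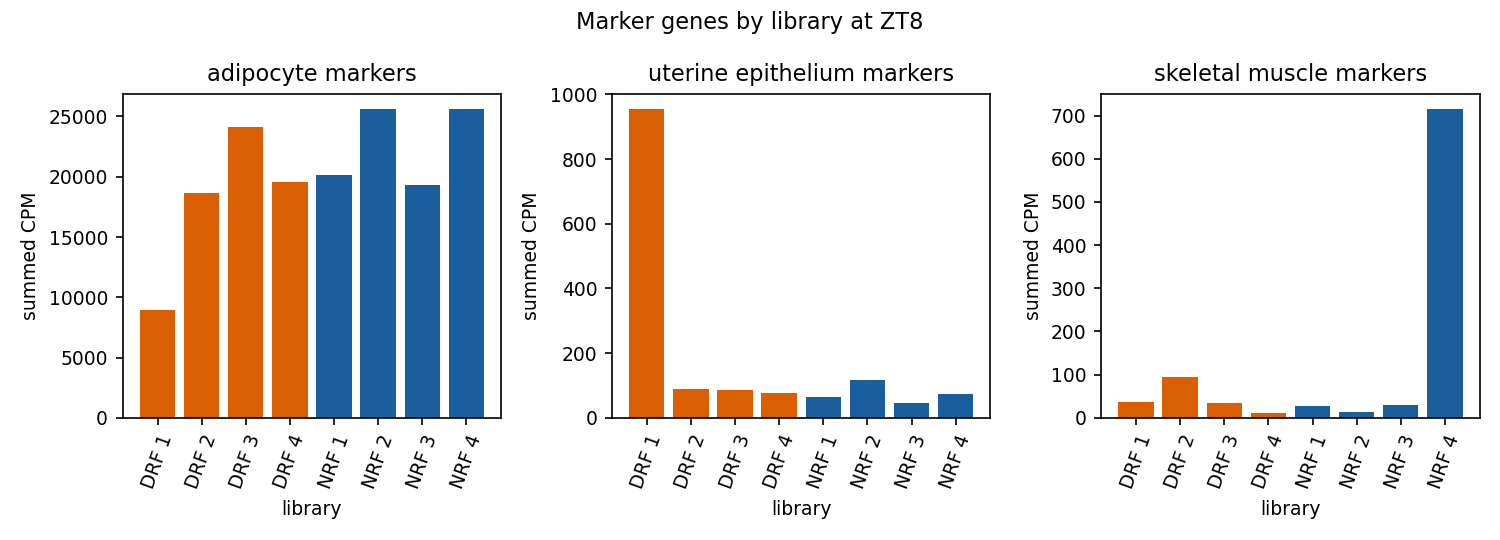
Summed CPM of the adipocyte, uterine epithelium and skeletal muscle marker genes in each of the 8 libraries at ZT8, with DRF in orange and NRF in blue. DRF mouse 1 stood at 955 CPM of uterine epithelium markers and NRF mouse 4 at 715 CPM of skeletal muscle markers.

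Markers of other cell types were compared in the same way, with counts of called genes to be read against 4.33% of all genes higher and 3.46% lower. Macrophage markers summed to 747 to 1259 CPM under DRF and 1050.2 to 2184 under NRF, and none of 8 was called (1 at an unadjusted p under 0.05). Sums of endothelium (546 to 957 and 698 to 818), mesothelium (271 to 487 and 296 to 603), lymph node (12.8 to 18.7 and 10.6 to 28.7) and ovary markers (39.5 to 75.5 and 46.4 to 58.2) overlapped between the regimens with no gene called (1 endothelium gene at an unadjusted p under 0.05). Blood markers overlapped as well (209 to 459.6 and 286 to 746), with Alas2 of heme synthesis the 1 of 5 called, lower (not called on 6 libraries), as did adipose progenitor markers (3033 to 4527 and 3377 to 5659.8), with Pdgfra the 1 of 8 called, lower. In lists this short 1 call already exceeds the 3.46% lower over all genes, so nothing is read from these shares. None of 12 uterine epithelium and 11 skeletal muscle genes was called or had an unadjusted p under 0.05 in limma. Neutrophil markers summed to 1.69 to 2.90 CPM under DRF and 0.979 to 1.62 under NRF, so the sums did not overlap, and none of their genes reached the minimum for testing. In the liver list Cyp2e1 was called lower, at 639, 1431, 1483 and 1369 CPM in DRF mice 1 to 4 and 4543, 5161, 2619.9 and 6899.9 CPM in NRF mice 1 to 4. Albumin (Alb), the other liver gene tested, was at 15.9 to 56.0 CPM under DRF and 13.6 to 19.04 CPM under NRF. Its difference of 0.91 was not called on 8 libraries (unadjusted p under 0.05 in limma) but was called higher on 6 libraries. No other liver marker passed 1.45 CPM. The pancreas list rested on Cela1, the single member above 1 CPM, which was called higher, at 12.5, 16.2, 33.9 and 23.2 CPM under DRF and 8.86, 7.42, 11.2 and 7.47 CPM under NRF.

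Of 14491 genes with a mean of at least 1 CPM, 628 were higher under DRF (4.33%) and 502 were lower (3.46%). Of these, 209 rose and 172 fell by 1 or more on the log2 scale, and the median difference over all genes was 0.030. Without DRF mouse 1 and NRF mouse 4, 549 were higher (3.79%) and 395 lower (2.73%), and 682 of the 1130 calls on 8 libraries (7.80%) were made again with the same sign. None of the 1130 changed sign. The number of calls depended on single libraries: leaving out DRF mouse 1 alone gave 1357 higher and 882 lower, while leaving out NRF mouse 4 alone gave 143 and 144. The counts were 155 and 163 without DRF mouse 4, 236 and 225 without DRF mouse 3, 145 and 146 without NRF mouse 1, and 188 and 192 without NRF mouse 2. Of 67 called genes that the rule for named genes took up, 38 kept the call whichever library was left out. The other 29 lost it in at least 1 such fit, with adjusted p values of up to 0.14, and each kept its direction: Aars, Adrb3, Angptl4, Apln, Bop1, Cpt1a, Dnaja1, Farsb, Gpat4, Hcar2, Hsd11b1, Hspa5, Hspa8, Insig1, Lep, Lss, Manf, Mlxipl, Mogat2, Mthfd1, Npas2, Npc1, Pdk2, Plin2, Ppp1r3c, Sdf2l1, Slc27a1, Tef and Tsr1. None was lost without DRF mouse 1, and 27 each without NRF mouse 1 and without NRF mouse 4. The groups did not overlap for 2464 genes (17.0%). Of 23 lists of genes, cholesterol synthesis held the most calls, followed by ribosome biogenesis and the aminoacyl-tRNA synthetases, and autophagy genes held none on 8 libraries.

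**Figure D2:**
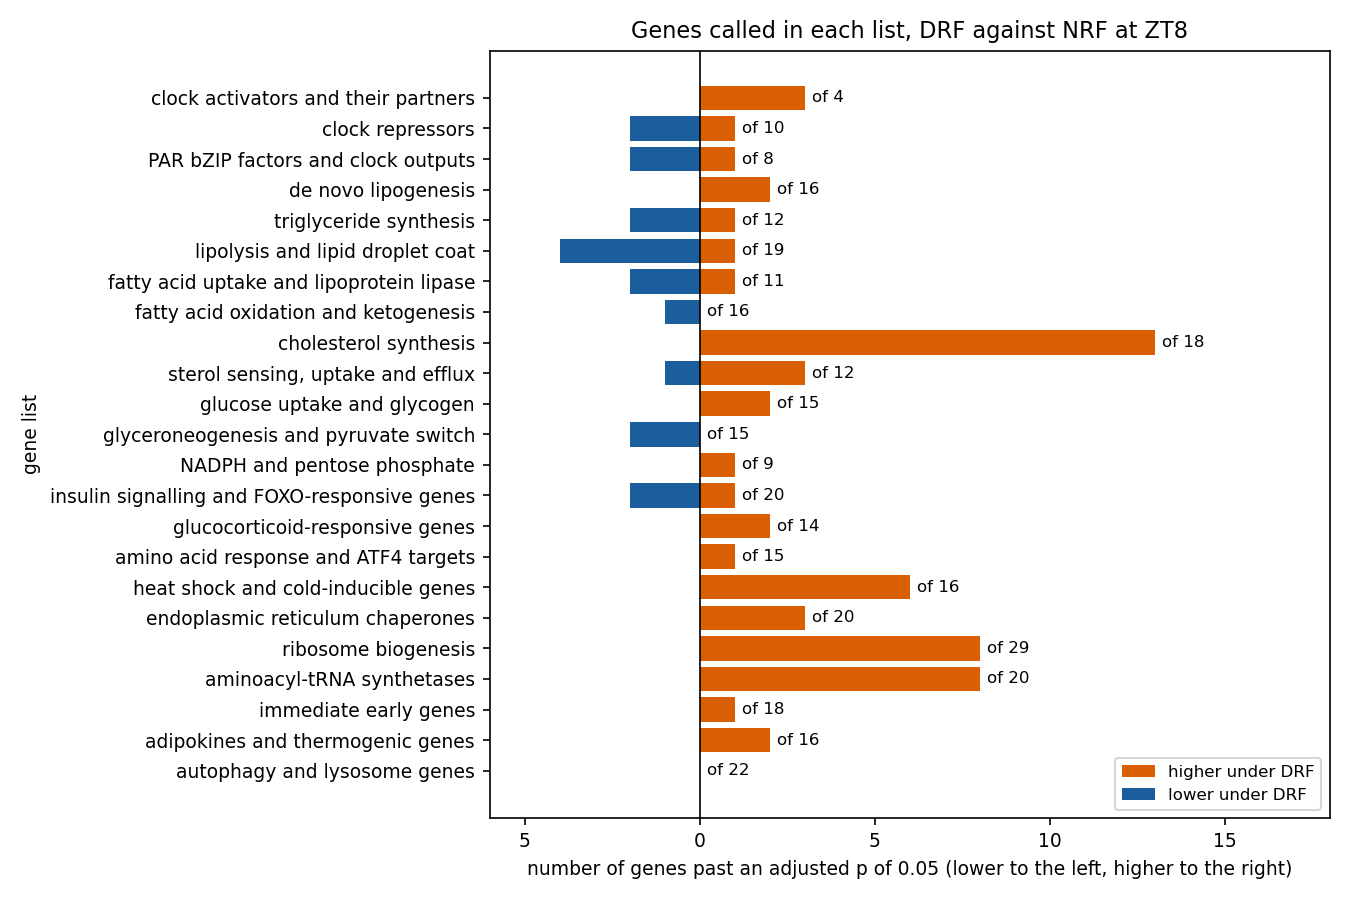
Number of genes called in each of 23 gene lists for DRF against NRF at ZT8, with genes higher under DRF to the right in orange, genes lower to the left in blue, and the number tested beside each bar. The longest bar is 13 of 18 cholesterol synthesis genes.

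Clock genes were called in both directions. Of 4 clock activators and partners 3 were higher under DRF and none lower (median difference 1.01, against 0.030 over all genes), while of 10 repressors 2 were lower, 1 was higher and 7 were not called, and 2 of 8 PAR bZIP and output genes were lower and 1 higher, against 4.33% of all genes higher and 3.46% lower. Without DRF mouse 1 there were 3 repressors lower and 3 output genes higher, and on 6 libraries 3 and 2. Just 1 output gene was lower without DRF mouse 2 or 4 or NRF mouse 1, 2 or 4. Library quality weights gave 3 repressors lower and 4 output genes higher. The fit of all 56 libraries gave 4 repressors lower, 4 output genes higher and 1 activator lower. Of the activators 2 were higher without DRF mouse 2 or 4 or any 1 NRF mouse. Arntl, the core activator, was at 15.1, 22.1, 23.0 and 22.9 CPM in DRF mice 1 to 4 and at 3.61, 3.42, 2.31 and 3.67 CPM in NRF mice 1 to 4, a difference of 2.35 ± 0.18 (adjusted p = 0.000991). Its partners followed: Clock differed by 0.82 ± 0.13 (adjusted p = 0.0103) and Npas2 by 1.20 ± 0.30 (adjusted p = 0.0445), whereas the activator Rora (-0.32) was not called. Nr1d1, the repressor of Arntl, was at 46.3, 75.7, 78.1 and 75.5 CPM under DRF and 244, 296, 229 and 249 CPM under NRF (-1.89 ± 0.18, adjusted p = 0.00145), so every DRF mouse was below every NRF mouse. Nr1d2 was lower by a smaller step (-0.92 ± 0.14, adjusted p = 0.00762).

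The Cryptochrome and Period genes were split. Cry1, a late repressor of the cycle, stood at 18.8, 17.1, 18.8 and 25.9 CPM in DRF mice 1 to 4 and 6.83, 6.13, 9.62 and 7.79 CPM in NRF mice 1 to 4 (1.30 ± 0.17, adjusted p = 0.00456), and Cry2 hardly differed (0.051 ± 0.18, adjusted p = 0.889). Per1 was at 35.2, 35.4, 75.7 and 54.9 CPM under DRF and 56.8, 59.9, 51.3 and 79.0 CPM under NRF (-0.34 ± 0.25, adjusted p = 0.432), with the groups overlapping. Per2 also overlapped (0.44 ± 0.25, adjusted p = 0.304). Per3 was lower in each DRF mouse, at 46.8, 37.1, 36.3 and 28.3 CPM against 85.2, 53.1, 113 and 50.6 CPM, but missed the threshold (-0.95 ± 0.26, adjusted p = 0.057) and passed it on 6 libraries (-1.22 ± 0.25, adjusted p = 0.0335). Ciart, a repressor of CLOCK and BMAL1, had 2.06, 1.60, 3.06 and 2.09 CPM under DRF and 3.96, 2.94, 9.64 and 2.38 under NRF (-0.70 ± 0.33, adjusted p = 0.226).

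Among the output factors, Dbp, an activator bound at D-box elements, fell from 156, 186, 228 and 143 CPM under NRF to 48.1, 57.7, 63.5 and 61.5 CPM under DRF (-1.60 ± 0.16, adjusted p = 0.00164). Its relative Tef fell by a smaller step (-0.73 ± 0.16, adjusted p = 0.028), while Hlf did not pass (-0.045). Nfil3, which represses the same elements, rose from 3.68, 3.28, 3.27 and 4.59 CPM to 14.6, 20.8, 35.5 and 30.8 CPM (2.42 ± 0.25, adjusted p = 0.0017). The regimens did not overlap for Dbp, Tef and Nfil3. Nampt, the enzyme of NAD salvage, was at 106, 131, 181 and 161 CPM under DRF and 102, 81.9, 131 and 96.3 CPM under NRF (0.48 ± 0.20, adjusted p = 0.165). The calls on Arntl, Clock, Npas2, Cry1, Nr1d1, Nr1d2, Dbp, Tef and Nfil3 were all made again on 6 libraries.

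**Figure D3:**
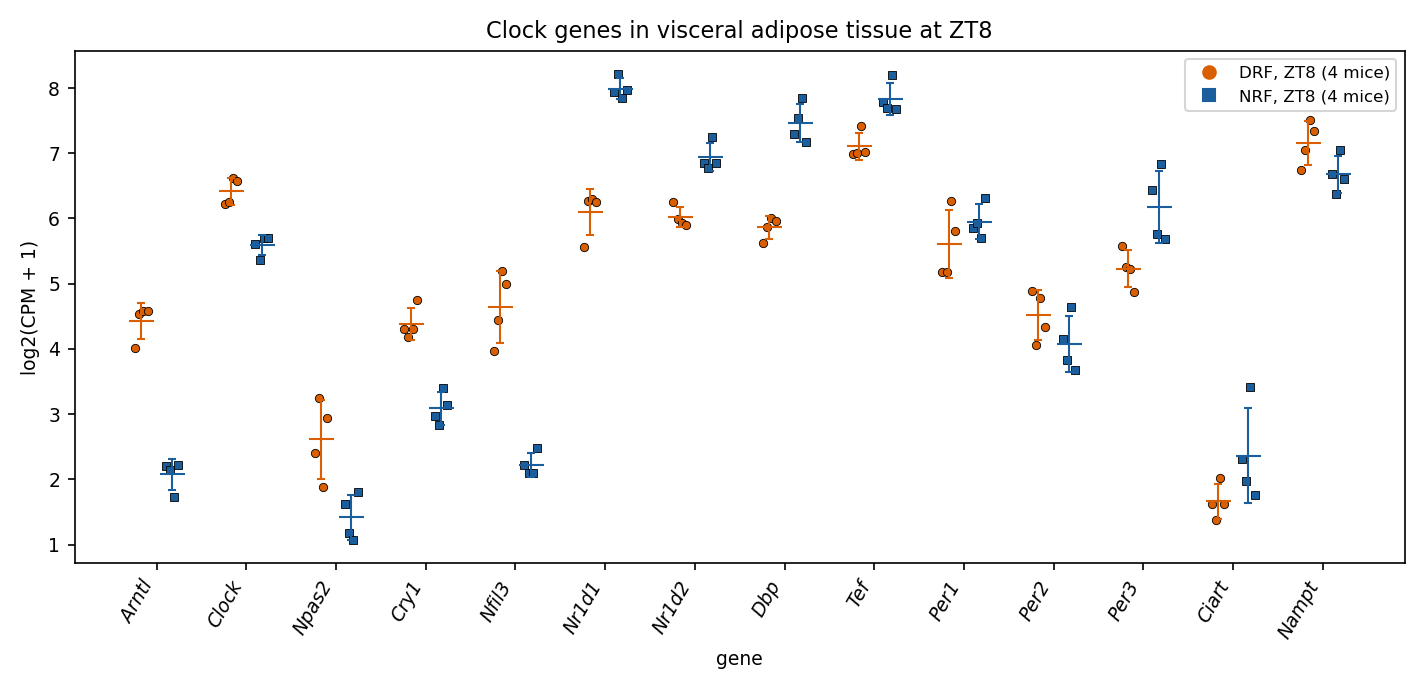
Levels of 14 clock genes in log2(CPM + 1) at ZT8, with a point for each DRF mouse (orange circles) and each NRF mouse (blue squares) and the mean ± SD of the 4 mice. Arntl, Clock, Npas2, Cry1 and Nfil3 lie higher under DRF, Nr1d1, Nr1d2, Dbp and Tef lower, and Per1, Per2, Ciart and Nampt overlap.

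The promoters of the clock gene with the largest change in each clock list are shown, since these 3 genes moved in opposite directions under the same regimens. They are RefSeq sequences of GRCm38.p6, from 250 bases before to 50 after the start of the gene, for Arntl at chr7:113207215-113207514 (+ strand, the upstream of 2 entries), Nr1d1 at chr11:98775328-98775627 (- strand) and Nfil3 at chr13:52980990-52981289 (- strand), printed 5′ to 3′ on the strand of the gene. Capitals mark matches, on either strand, to any of the E-box CACGTG, the D-box TTATGTAA, the RORE core AGGTCA, the sterol element TCACNCCAC and the CCAAT box CCAAT.
Arntl: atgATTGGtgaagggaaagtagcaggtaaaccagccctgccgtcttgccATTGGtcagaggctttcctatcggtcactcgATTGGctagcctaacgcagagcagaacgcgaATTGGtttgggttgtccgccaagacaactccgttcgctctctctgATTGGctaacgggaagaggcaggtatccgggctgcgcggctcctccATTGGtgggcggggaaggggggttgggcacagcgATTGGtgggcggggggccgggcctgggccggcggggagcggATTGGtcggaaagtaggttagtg
Nr1d1: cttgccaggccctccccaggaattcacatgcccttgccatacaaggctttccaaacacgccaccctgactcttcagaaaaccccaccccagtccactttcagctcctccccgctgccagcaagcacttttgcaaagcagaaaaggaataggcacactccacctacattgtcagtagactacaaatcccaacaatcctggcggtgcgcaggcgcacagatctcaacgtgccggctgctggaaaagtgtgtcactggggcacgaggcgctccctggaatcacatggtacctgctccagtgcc
Nfil3: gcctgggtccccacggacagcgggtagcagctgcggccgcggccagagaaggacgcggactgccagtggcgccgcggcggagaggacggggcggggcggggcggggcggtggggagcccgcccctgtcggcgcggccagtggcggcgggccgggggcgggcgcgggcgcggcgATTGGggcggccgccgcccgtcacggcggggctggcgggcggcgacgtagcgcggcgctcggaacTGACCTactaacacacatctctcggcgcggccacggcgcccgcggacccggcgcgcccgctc
The Arntl window held 8 matches to CCAAT, all on the opposite strand as ATTGG, and none to the other motifs. The Nfil3 window held 1 CCAAT match and 1 RORE core match, 12 bases before its start, and the Nr1d1 window held no match. For these 3 genes matches outside the printed window are not given, and no binding was measured. Among 27025 genes with an entry, 37.9% held CCAAT, 16% AGGTCA, 7.24% CACGTG, 1.22% TCACNCCAC and 0.955% TTATGTAA. Among 19 genes of the clock lists with an entry, 12 held CCAAT, 5 CACGTG, 4 AGGTCA and 1 TTATGTAA.

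Most cholesterol synthesis genes were called higher under DRF on 8 libraries. Of 18 enzymes of the pathway 13 were called, all higher (72.2%, against 4.33% of all genes), and the median difference of the 18 was 1.72. The call held for all 13 without DRF mouse 1 and NRF mouse 4, while single omissions gave from 6 calls (without NRF mouse 4), 7 (without DRF mouse 4) and 8 (without NRF mouse 1) to 16 (without DRF mouse 1), all higher. Mvd, mevalonate diphosphate decarboxylase, changed most, with 68.2, 81.3, 105 and 142 CPM in DRF mice 1 to 4 and 12.7, 7.57, 24.6 and 10.3 CPM in NRF mice 1 to 4 (2.83 ± 0.33, adjusted p = 0.00308). Squalene epoxidase (Sqle) was at 55.7, 61.6, 77.1 and 99.9 CPM under DRF and 11.6, 7.51, 33.8 and 8.71 under NRF (2.40 ± 0.40, adjusted p = 0.0115). Lanosterol synthase (Lss), the next step, was at 116, 152, 185 and 257 CPM under DRF and 39.1, 17.1, 80.1 and 22.3 under NRF (2.32 ± 0.43, adjusted p = 0.017). NRF mouse 3 was the highest of its group for all 3 of these, and it still lay below every DRF mouse.

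Hmgcs1, HMG-CoA synthase at the entry into the pathway, was at 161, 240.4, 306 and 279.7 CPM under DRF and 89.3, 94.5, 88.2 and 103 CPM under NRF (1.35 ± 0.19, adjusted p = 0.00625). The other called enzymes were Acat2, Pmvk, Idi1, Fdps, Cyp51, Msmo1, Hsd17b7, Sc5d and Dhcr7, with differences from 1.24 (Msmo1) to 2.15 (Cyp51). The 5 that missed the threshold were also above 0: Nsdhl at 1.48 ± 0.47, Tm7sf2 at 0.93 ± 0.46, Mvk at 0.84 ± 0.28, Ebp at 0.24 ± 0.18 and Fdft1 at 0.15 ± 0.23. At ZT20, 16 of the 18 had a difference below 0 (median -0.69), and for 15 of 18 the difference at ZT8 departed from that at ZT20 in the test of the interaction (28.9% of all genes), which holds the same ZT8 libraries.

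**Figure D4:**
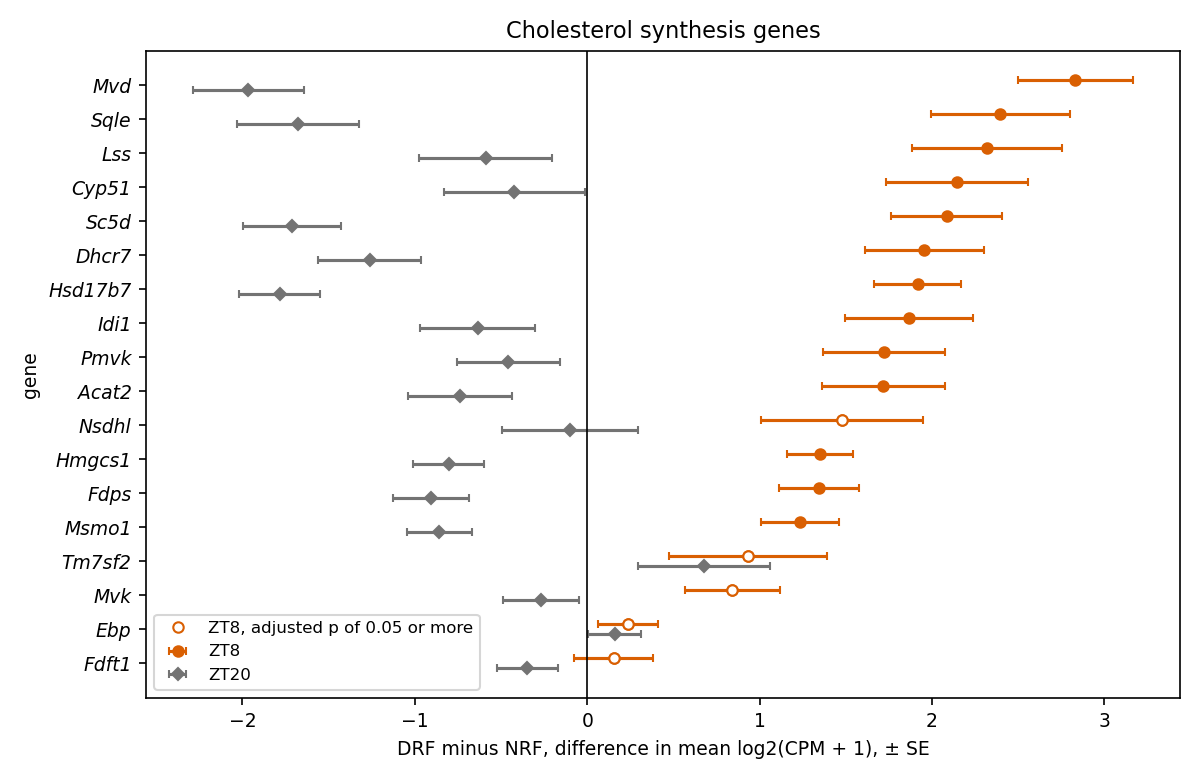
Difference between DRF and NRF in mean log2(CPM + 1) ± SE for 18 cholesterol synthesis genes at ZT8 (orange circles, open where the adjusted p was 0.05 or more) and ZT20 (grey diamonds). At ZT8 all 18 lie above 0, from 0.15 for Fdft1 to 2.83 for Mvd, and at ZT20 16 lie below 0.

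Of 12 genes of sterol sensing, uptake and efflux 3 were higher and 1 lower (25.0% and 8.33%, against 4.33% and 3.46% of all genes; median -0.26, and 0.0024 on 6 libraries). None was lower without DRF mouse 2, 3 or 4 or NRF mouse 1, 2 or 4. The lower count was 2 with library quality weights or scaling by quantiles and 4 in the fit of all 56 libraries. Insig1, which holds SREBP in the endoplasmic reticulum and is itself an SREBP target, was at 547, 693, 896 and 1194 CPM in DRF mice 1 to 4 and 358, 83.2, 185 and 211 CPM in NRF mice 1 to 4 (2.11 ± 0.41, adjusted p = 0.0193). The sterol carrier Stard4 (0.97 ± 0.13, adjusted p = 0.00585) and Srebf2 (0.58 ± 0.086, adjusted p = 0.00762), the SREBP of sterol genes, were higher by less. Npc1, which exports cholesterol from lysosomes, was lower (-0.99 ± 0.23, adjusted p = 0.0355). The efflux pumps Abca1 (-0.36) and Abcg1 (-0.57) did not pass.

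The promoters of 3 sterol genes are shown for the letters they share. Mvd and Insig1 had the largest change in their lists, and Lss the next largest among the genes named by rule that had an entry, since Sqle had none. They are Mvd at chr8:122443373-122443672 (- strand), Lss at chr10:76531355-76531654 (+ strand) and Insig1 at chr5:28071162-28071461 (+ strand), from the same RefSeq table, with the same window and the same 5 motifs in capitals.
Mvd: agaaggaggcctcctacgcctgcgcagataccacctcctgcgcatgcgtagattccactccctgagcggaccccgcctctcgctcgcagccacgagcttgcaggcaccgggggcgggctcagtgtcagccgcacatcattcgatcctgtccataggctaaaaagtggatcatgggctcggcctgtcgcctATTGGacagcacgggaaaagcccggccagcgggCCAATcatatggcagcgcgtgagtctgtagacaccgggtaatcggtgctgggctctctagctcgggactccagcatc
Lss: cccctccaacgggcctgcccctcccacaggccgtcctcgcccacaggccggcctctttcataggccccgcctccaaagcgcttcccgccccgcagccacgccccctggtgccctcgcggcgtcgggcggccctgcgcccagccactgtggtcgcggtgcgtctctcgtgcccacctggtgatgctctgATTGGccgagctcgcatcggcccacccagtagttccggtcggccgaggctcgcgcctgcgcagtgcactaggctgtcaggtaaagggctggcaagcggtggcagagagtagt
Insig1: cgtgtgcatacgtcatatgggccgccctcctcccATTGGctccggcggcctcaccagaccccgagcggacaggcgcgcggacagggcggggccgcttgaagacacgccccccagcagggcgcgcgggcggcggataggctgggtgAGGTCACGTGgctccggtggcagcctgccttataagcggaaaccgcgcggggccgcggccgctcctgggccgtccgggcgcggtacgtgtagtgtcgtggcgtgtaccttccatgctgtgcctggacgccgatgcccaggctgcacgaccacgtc
Mvd held 2 matches to CCAAT, 60 and 27 bases before its start, Lss held 1 at 62 bases and Insig1 held 1 at 216 bases. Insig1 also held an AGGTCA match that overlaps a CACGTG match 105 and 101 bases before its start. Of 15 cholesterol synthesis genes with an entry, 13 held CCAAT (86.7%, against 37.9% of all), 2 held CACGTG, 2 held AGGTCA and 1 held TCACNCCAC. A match describes the letters of the window and no binding was measured.

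De novo lipogenesis genes varied widely among NRF mice. All 16 had a difference above 0 (median 1.41), of which 2 were called (12.5%, against 4.33% of all genes). The count was 6 without NRF mouse 3, 2 without DRF mouse 1, and 1 without any other single mouse or on 6 libraries, while it was 11 with library quality weights and 12 in the fit of all 56 libraries. Fasn, fatty acid synthase, was at 14153, 25234, 26272 and 35535 CPM in DRF mice 1 to 4 and 16887, 971, 32188 and 7125 CPM in NRF mice 1 to 4 (1.62 ± 1.12, adjusted p = 0.414). Elovl6, the elongase of palmitate, was at 1217, 1649, 1460.3 and 2586 CPM under DRF and 732, 11.6, 1642 and 244 CPM under NRF (2.75 ± 1.24, adjusted p = 0.206). Acly, which makes cytosolic acetyl-CoA from citrate, was at 5006, 7781, 9288 and 12212 CPM and 1380.5, 154, 6511 and 321 CPM (3.32 ± 1.01, adjusted p = 0.0779). For all 3, NRF mouse 2 was the lowest of 8 and NRF mouse 3 was within the DRF range. Acaca, the carboxylase that makes malonyl-CoA, followed the same order within NRF, at 3060.0, 326, 5165 and 1433 CPM, against 2545, 3855, 4209 and 6009 CPM under DRF (1.27 ± 0.76, adjusted p = 0.341).

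Scd2, a fatty acid desaturase, was the lipogenic gene that separated the regimens, with 1512, 1769.7, 2345 and 3149 CPM under DRF and 132, 56.3, 596 and 83.2 CPM under NRF (3.92 ± 0.63, adjusted p = 0.0101). Its more abundant relative Scd1 did not, at 43292, 79560.1, 83005 and 100561 CPM under DRF and 43290.2, 8737, 54765 and 34441 CPM under NRF (1.33 ± 1.46, adjusted p = 0.621). The CPM of Scd1 rests on an exon length that could not be tested against whole reads. Mlxipl, the carbohydrate-responsive factor ChREBP, was at 153, 229, 288 and 306 CPM and 100.2, 53.7, 175 and 51.1 CPM (1.49 ± 0.39, adjusted p = 0.0474) and was not called on 6 libraries (adjusted p = 0.0528). Srebf1, the SREBP of fatty acid synthesis, overlapped between the regimens at 405, 654, 780.0 and 963 CPM and 513, 268, 769 and 341 CPM (0.61 ± 0.36, adjusted p = 0.332). Of 9 genes that supply NADPH, 1 was called (11.1%, against 4.33% of all genes): Mthfd1 of the folate cycle (0.72 ± 0.13, adjusted p = 0.0161). The count was 0 without DRF mouse 4 or NRF mouse 1, 2 or 4, 2 without DRF mouse 2 or NRF mouse 3 and 4 without DRF mouse 1, while Pgd of the pentose phosphate pathway was at 1.70 ± 0.47 (adjusted p = 0.057).

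**Figure D5:**
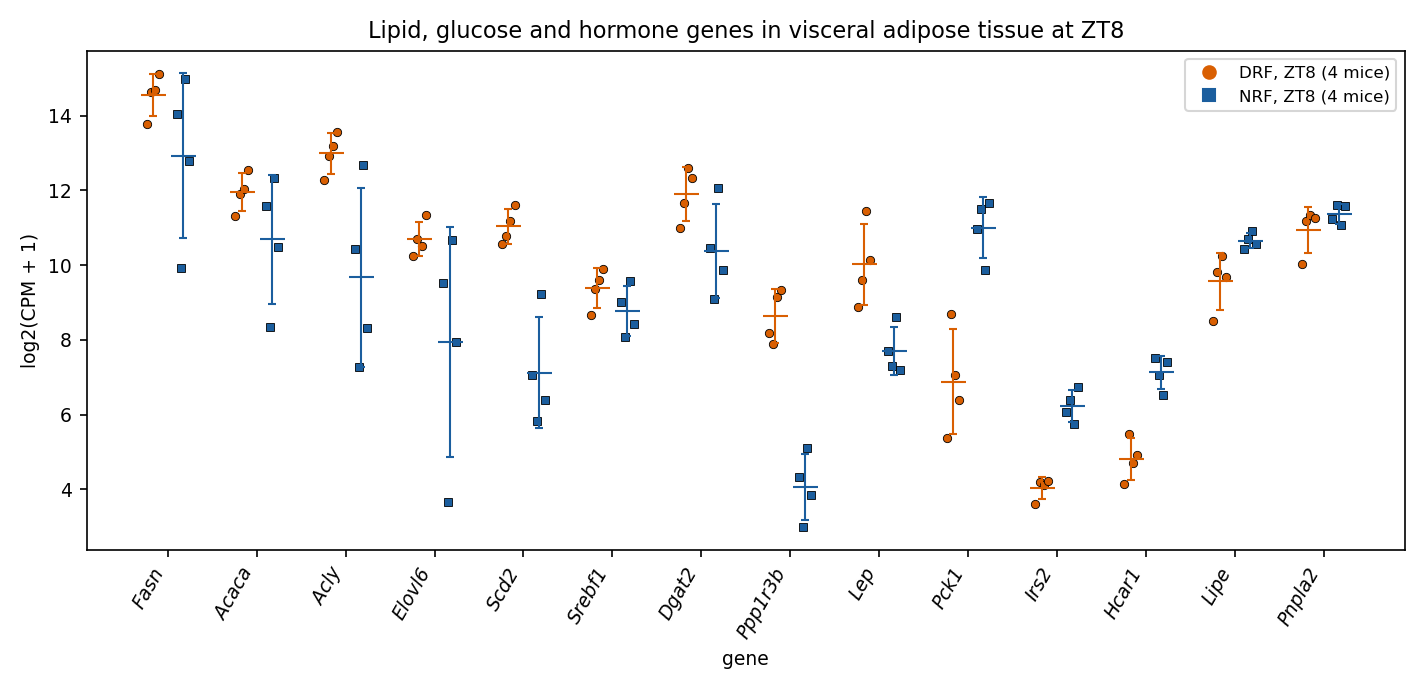
Levels of 14 lipid, glucose and hormone genes in log2(CPM + 1) at ZT8, with a point for each DRF mouse (orange circles) and each NRF mouse (blue squares) and the mean ± SD of the 4 mice. Fasn, Acaca, Acly and Elovl6 spread widely among NRF mice, while Scd2, Ppp1r3b, Lep, Pck1, Irs2, Hcar1 and Lipe do not overlap.

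Of 12 triglyceride synthesis genes 1 was higher and 2 were lower (8.33% and 16.7%, against 4.33% and 3.46% of all genes; median 0.46). On 6 libraries none was higher and 2 were lower. Single omissions gave 3 higher without NRF mouse 3 and 2 without DRF mouse 1. None was higher without DRF mouse 3 or 4 or NRF mouse 1, 2 or 4, and 1 was lower without NRF mouse 4. Library quality weights gave 7 higher and 2 lower, and the fit of all 56 libraries gave 6 and 3. The glycerol-phosphate acyltransferases Gpat3 and Gpat4 were lower: Gpat3 was at 29.0, 62.7, 83.2 and 67.2 CPM in DRF mice 1 to 4 and 156, 169.7, 191 and 163 CPM in NRF mice 1 to 4 (-1.57 ± 0.28, adjusted p = 0.0132). Gpat4 was at -0.92 ± 0.16 (adjusted p = 0.0121). Mogat2, a monoacylglycerol acyltransferase, was at 25.1, 23.4, 59.7 and 62.6 CPM under DRF and 4.75, 1.35, 21.1 and 2.95 under NRF (2.76 ± 0.63, adjusted p = 0.0328) and missed the threshold on 6 libraries (adjusted p = 0.0602). The final acyltransferases were not called, Dgat1 at -0.60 ± 0.23 (adjusted p = 0.15) and Dgat2 at 1.53 ± 0.63 (adjusted p = 0.168), nor was the phosphatidate phosphatase Lpin1 (0.52 ± 0.33, adjusted p = 0.361).

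In lipolysis, the receptors changed and the lipases did not pass on 8 libraries. Of 19 genes 4 were lower and 1 higher (21.1% and 5.26%, against 3.46% and 4.33% of all genes; median -0.43, and -0.052 on 6 libraries). Single omissions gave from 1 lower (without DRF mouse 4, NRF mouse 1 or NRF mouse 2) and 2 (without NRF mouse 4) to 5 (without DRF mouse 1). The 1 higher was not called without DRF mouse 2, 3 or 4 or NRF mouse 1, 2 or 4. Library quality weights gave 7 lower and 2 higher, and the fit of all 56 libraries gave 8 and 2. Hcar1, the lactate receptor that restrains lipolysis, was at 16.7, 43.8, 25.3 and 29.6 CPM under DRF and 181, 134, 91.9 and 169 CPM under NRF (-2.31 ± 0.29, adjusted p = 0.00447). Hcar2, the receptor for niacin and β-hydroxybutyrate, was at 5.73, 16.2, 10.1 and 11.6 CPM and 66.5, 53.0, 20.9 and 82.1 CPM (-2.17 ± 0.41, adjusted p = 0.0184). Adrb3, the adrenergic receptor that drives lipolysis in fat, was at 98.6, 333, 153 and 186 CPM and 548, 673, 644 and 472 CPM (-1.72 ± 0.32, adjusted p = 0.0171), so receptors that restrain and that drive lipolysis were lower together. Pde3b, the phosphodiesterase through which insulin lowers cyclic AMP, was lower too (-1.11 ± 0.25, adjusted p = 0.0305). Adipose triglyceride lipase (Pnpla2) was at 1037, 2318, 2594 and 2439 CPM under DRF and 2416, 3128, 2148 and 3078 CPM under NRF (-0.43 ± 0.37, adjusted p = 0.515). Hormone-sensitive lipase (Lipe) was below in every DRF mouse, at 361, 908, 1221 and 822 CPM against 1382, 1676, 1933 and 1525 CPM, but was not called (-1.09 ± 0.36, adjusted p = 0.0957). For Pnpla2 and Lipe the lowest value was that of DRF mouse 1, the library low in adipocyte markers. Without it the difference of Pnpla2 was -0.12 (adjusted p = 0.777) and that of Lipe -0.74 (adjusted p = 0.0483), a call that was not made on 6 libraries (adjusted p = 0.0923). The droplet coat gene Plin2 was higher (1.24 ± 0.32, adjusted p = 0.047).

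The transcripts of a pair of proteins that act on lipoprotein lipase were called in opposite directions. Angptl4, an inhibitor of the lipase induced by fasting, was at 61.3, 143, 131 and 129.6 CPM in DRF mice 1 to 4 and 316, 358, 184 and 383 CPM in NRF mice 1 to 4 (-1.43 ± 0.31, adjusted p = 0.0277). Angptl8, its relative induced by feeding, was at 135, 111, 376 and 237 CPM under DRF and 27.8, 8.27, 38.0 and 17.4 CPM under NRF (3.20 ± 0.48, adjusted p = 0.00827). The lipase itself overlapped, with Lpl at 4508, 9653, 12406 and 9638 CPM and 7085, 6636, 10097 and 9036 CPM (0.07 ± 0.57, adjusted p = 0.956). The fatty acid transporter Slc27a1 was lower (-1.31 ± 0.30, adjusted p = 0.0319; 0.0591 on 6 libraries), and of all 11 uptake genes 1 was higher and 2 lower (median -0.27). Those are 9.09% and 18.2%, against 4.33% and 3.46% of all genes. On 6 libraries 1 was higher and 1 lower (median 0.0013), and none was lower without DRF mouse 3 or NRF mouse 1, 2 or 4. The lower count was 3 with scaling by quantiles, and the fit of all 56 libraries gave 4 lower and 2 higher. Of 16 genes of fatty acid oxidation and ketogenesis 1 was lower and none higher (median -0.089; 0.11 on 6 libraries), against 3.46% and 4.33% of all genes, and none was called without DRF mouse 4 or NRF mouse 1, 2 or 4. It was Cpt1a, which admits fatty acids to mitochondria, at 47.0, 50.8, 49.7 and 52.2 CPM under DRF and 78.0, 88.7, 63.7 and 78.3 CPM under NRF (-0.61 ± 0.12, adjusted p = 0.0182). The other 15 were not called on 8 libraries and ranged from -0.67 (Ehhadh) to 0.51 (Ucp3). The β-oxidation enzyme Acadm was at -0.057 ± 0.26 (adjusted p = 0.919) and Hadha at -0.082 ± 0.21 (adjusted p = 0.847). Library quality weights gave 2 of the 16 lower and 1 higher, and the fit of all 56 libraries gave 3 lower.

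The largest fall among listed genes was in Pck1, the enzyme of glyceroneogenesis that supplies glycerol for re-esterification in fasting. Pck1 was at 40.5, 415, 133 and 82.8 CPM in DRF mice 1 to 4 and 2004, 2901, 932 and 3276 CPM in NRF mice 1 to 4 (-4.12 ± 0.66, adjusted p = 0.00966), and on 6 libraries the difference was -3.39 ± 0.60 (adjusted p = 0.0226). Pdk2, a kinase that shuts off pyruvate dehydrogenase, was lower (-0.97 ± 0.25, adjusted p = 0.047; 0.0802 on 6 libraries), while Pdk4 overlapped at 26.3, 55.2, 44.1 and 57.8 CPM and 61.3, 53.7, 26.5 and 106 CPM (-0.33 ± 0.39, adjusted p = 0.65). Those were the calls among 15 genes of glyceroneogenesis and the pyruvate switch (13.3% lower, against 3.46% of all genes; median 0.40). The count was 3 lower without DRF mouse 1 and 2 lower and 2 higher without NRF mouse 3. It was 1 lower without any other single mouse or on 6 libraries. Library quality weights and the fit of all 56 libraries each gave 5 higher and 3 lower. Of 15 genes of glucose uptake and glycogen 2 were higher (13.3%, against 4.33% of all genes) and none lower (median 0.57), both of them subunits that target protein phosphatase 1 to glycogen. The count of higher genes was 3 on 6 libraries, 6 without DRF mouse 1, 4 without NRF mouse 3, 3 without DRF mouse 2 and 1 without any other single mouse, and it was 9 with library quality weights and 7 in the fit of all 56 libraries. Ppp1r3b was at 290.1, 237, 568 and 649 CPM under DRF and 19.2, 6.98, 33.4 and 13.4 CPM under NRF (4.57 ± 0.46, adjusted p = 0.00156). Ppp1r3c was at 0.99 ± 0.25 (adjusted p = 0.043). The insulin-responsive transporter Slc2a4 (GLUT4) was at 243, 378, 578 and 594 CPM and 193, 173, 387 and 150.4 CPM (1.0 ± 0.36, adjusted p = 0.123). Hexokinase 2 (Hk2), at 161, 147, 312 and 352 CPM and 90.7, 62.4, 153 and 79.2 CPM, came just short (1.30 ± 0.35, adjusted p = 0.0516), with 1 DRF mouse inside the NRF range.

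Among 20 genes of insulin signalling and FOXO targets 1 was higher and 2 were lower (5% and 10%, against 4.33% and 3.46% of all genes; median -0.18). On 6 libraries 1 was higher and 3 were lower (median 0.0080), and 3 were lower without DRF mouse 1, 4 without NRF mouse 3 and 2 higher without DRF mouse 2. Irs2, the insulin receptor substrate that FOXO factors induce in fasting, was at 11.2, 17.3, 16.5 and 17.7 CPM in DRF mice 1 to 4 and 66.9, 82.7, 52.7 and 105 CPM in NRF mice 1 to 4 (-2.20 ± 0.22, adjusted p = 0.00154). Txnip, a restraint on glucose uptake, was at 262, 452, 374 and 417 CPM under DRF and 1336, 1692, 1017 and 1692 CPM under NRF (-1.93 ± 0.25, adjusted p = 0.00452). Bcl6, a transcriptional repressor, was higher (1.34 ± 0.24, adjusted p = 0.0132). Insr (-0.27), Irs1 (0.0089) and Akt2 (-0.027) were not called, nor was Trib3 (-0.37 ± 0.33, adjusted p = 0.524).

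Leptin (Lep), the hormone that reports fat stores to the brain, was at 473, 775, 2795 and 1134 CPM in DRF mice 1 to 4 and 209, 158, 393 and 146 CPM in NRF mice 1 to 4 (2.31 ± 0.52, adjusted p = 0.0305). Every DRF mouse was above every NRF mouse, including DRF mouse 1. Apelin (Apln), an adipokine, was at 30.8, 29.4, 26.3 and 44.6 CPM under DRF and 7.67, 4.23, 16.8 and 7.15 CPM under NRF (1.88 ± 0.33, adjusted p = 0.0131). Adiponectin (Adipoq) overlapped, at 1025, 2662, 2594 and 2408 CPM and 2584, 3717, 3126 and 3612 CPM (-0.67 ± 0.38, adjusted p = 0.316), and the difference was -0.34 without DRF mouse 1. These were 2 higher and none lower of 16 adipokine and thermogenic genes (12.5% higher, against 4.33% of all genes; median -0.0099, and 0.18 on 6 libraries), and the count was 4 without DRF mouse 1, 1 without DRF mouse 4 or NRF mouse 2 and 0 without NRF mouse 1 or 4. Ucp1, the uncoupling protein of thermogenic fat, was at 0.673, 5.02, 2.95 and 3.89 CPM and 14.0, 1.86, 9.08 and 47.5 CPM (-1.69 ± 0.75, adjusted p = 0.2).

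Of 14 glucocorticoid-responsive genes 2 were higher (14.3%, against 4.33% of all genes) and none lower (median 0.23). The count was 4 without DRF mouse 1, 3 on 6 libraries and 1 without DRF mouse 2 or 4 or NRF mouse 1, 2 or 4. Hsd11b1, which regenerates active glucocorticoid inside the cell, was at 40.7, 64.9, 178 and 78.1 CPM in DRF mice 1 to 4 and 23.6, 17.9, 35.4 and 24.9 CPM in NRF mice 1 to 4 (1.62 ± 0.39, adjusted p = 0.0386). Cdkn1a, the cell cycle inhibitor p21, was at 28.9, 81.1, 88.9 and 56.4 CPM under DRF and 11.3, 11.6, 8.38 and 15.1 CPM under NRF (2.27 ± 0.32, adjusted p = 0.00686). The receptor chaperone Fkbp5 was at 14.5, 19.4, 76.6 and 24.7 CPM and 23.0, 17.8, 15.3 and 14.9 CPM (0.61 ± 0.43, adjusted p = 0.422), with DRF mouse 3 far above the rest.

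Of 29 ribosome biogenesis genes 8 were higher (27.6%, against 4.33% of all genes) and none lower (median 0.43), led by Rrp12 (1.11 ± 0.17, adjusted p = 0.00809), Tsr1 (0.97 ± 0.18, adjusted p = 0.0151) and Bop1 (0.89 ± 0.16, adjusted p = 0.0126), which process or assemble pre-ribosomes. Leaving out NRF mouse 1 or NRF mouse 4 left 2 calls, DRF mouse 4 or NRF mouse 2 left 3 and DRF mouse 3 left 5. On 6 libraries 8 were higher and 1, Dkc1 of the pseudouridine complex, lower (-0.69 ± 0.14, adjusted p = 0.0326). Of 20 cytosolic aminoacyl-tRNA synthetases, which charge tRNAs with amino acids, 8 were higher (40.0%) and none lower (median 0.37), 4 on 6 libraries, 2 without DRF mouse 3 or NRF mouse 2 and 1 without DRF mouse 4, NRF mouse 1 or NRF mouse 4. Iars, of isoleucine, was at 60.7, 39.5, 46.6 and 56.8 CPM in DRF mice 1 to 4 and 24.6, 25.2, 27.5 and 26.1 CPM in NRF mice 1 to 4 (0.93 ± 0.14, adjusted p = 0.00784). Aars (0.67 ± 0.17, adjusted p = 0.0432) and Farsb (0.64 ± 0.15, adjusted p = 0.0373) were not called on 6 libraries (adjusted p = 0.0592 and 0.0641).

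Of 16 heat shock and cold-inducible genes 6 were higher (37.5%, against 4.33% of all genes) and none lower (median 0.36), 3 on 6 libraries and 1 without DRF mouse 3, DRF mouse 4 or NRF mouse 1, 2 or 4. Hsph1, a nucleotide exchange factor of HSP70, was at 54.4, 39.0, 69.1 and 59.5 CPM in DRF mice 1 to 4 and 13.0, 12.8, 22.2 and 14.8 CPM in NRF mice 1 to 4 (1.76 ± 0.21, adjusted p = 0.00346). The constitutive HSP70 gene Hspa8 was at 1086, 1194, 1548 and 1523 CPM under DRF and 509.7, 715, 472 and 799.9 CPM under NRF (1.12 ± 0.24, adjusted p = 0.0268), and its co-chaperone Dnaja1 was at 1.06 ± 0.20 (adjusted p = 0.0188). The inducible copy Hspa1b, which shares reads with Hspa1a, was at 16.4, 16.3, 15.9 and 16.1 CPM and 11.0, 13.5, 8.72 and 14.2 CPM (0.44 ± 0.15, adjusted p = 0.105). Cirbp, induced by cold, was at 47.3, 44.5, 28.6 and 28.5 CPM and 54.1, 73.3, 49.5 and 53.4 CPM (-0.64 ± 0.20, adjusted p = 0.0858). Of 20 chaperones of the endoplasmic reticulum 3 were higher (15.0%) and none lower (median 0.067): Hspa5, the HSP70 of that compartment (0.66 ± 0.15, adjusted p = 0.0321), Manf (0.47 ± 0.12, adjusted p = 0.0468) and Sdf2l1 (0.65 ± 0.17, adjusted p = 0.0453). On 6 libraries Hspa5 alone remained among the 20, and the count was 4 without DRF mouse 1, 1 without NRF mouse 2 and 0 without any other single mouse.

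Single members of further lists were called, at shares of 6.67% and 5.56% that lie near the 4.33% of all genes. Mthfd2 of mitochondrial folate metabolism was at 1.12 ± 0.17 (adjusted p = 0.00762), the 1 call among 15 ATF4 targets and amino acid response genes (median 0.026), of which 2 were higher without DRF mouse 1 or on 6 libraries. Fosl2, an AP-1 subunit, was at 97.6, 96.4, 81.4 and 94.0 CPM in DRF mice 1 to 4 and 31.9, 31.3, 37.8 and 35.8 CPM in NRF mice 1 to 4 (1.41 ± 0.11, adjusted p = 0.000991). It was the 1 call among 18 immediate early genes (median 0.20), and Fos itself overlapped at 4.13, 9.60, 6.70 and 5.09 CPM and 2.38, 11.7, 9.64 and 6.08 CPM (-0.086 ± 0.40, adjusted p = 0.919). None of 22 autophagy and lysosome genes was called (median -0.066; 0.063 on 6 libraries) by limma on 8 or on 6 libraries, with 4 at an unadjusted p under 0.05 on 8 libraries and none called by voom. There was 1 higher without DRF mouse 1, 4 higher and 3 lower with library quality weights, and 2 higher and 4 lower in the fit of all 56 libraries. Bnip3 had the lowest value (-0.85 ± 0.34, adjusted p = 0.155).

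Without regard to the pathway lists and leaving out marker genes, the 10 largest rises and 10 largest falls were taken among protein-coding genes with a mean of at least 5 CPM that were called on 8 and on 6 libraries and did not overlap. After Ppp1r3b, the largest rise was in Hephl1, a copper-dependent ferroxidase, at 52.7, 52.7, 94.8 and 134 CPM in DRF mice 1 to 4 and 3.50, 0.381, 8.0 and 1.59 CPM in NRF mice 1 to 4 (4.49 ± 0.53, adjusted p = 0.00324). Cyp1a1, the classic target of the aryl hydrocarbon receptor, was at 54.1, 62.3, 86.2 and 84.2 CPM under DRF and 5.78, 6.74, 12.7 and 6.78 CPM under NRF (3.05 ± 0.24, adjusted p = 0.000991). Osgin1, a gene induced by oxidative stress, was at 22.4, 35.5, 48.7 and 39.3 CPM and 3.43, 5.50, 4.22 and 4.05 CPM (2.79 ± 0.22, adjusted p = 0.000991). Mid1ip1, which promotes the active polymer of acetyl-CoA carboxylase, was at 163, 140.5, 330.1 and 289 CPM and 31.3, 27.1, 47.6 and 25.0 CPM (2.73 ± 0.30, adjusted p = 0.00212). The other rises were Scd2, Angptl8 and Mvd, described above, and the matrix genes Podnl1 (2.97 ± 0.39, adjusted p = 0.00484) and Ncan (2.80 ± 0.41, adjusted p = 0.00711).

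Of the falls 9 are given. Pck1 led them, and a pair of neighbouring imprinted genes of chromosome 7 was also among them. Zim1 was at 0.626, 1.67, 0.629 and 1.36 CPM under DRF and 18.5, 15.6, 6.92 and 17.7 CPM under NRF (-2.87 ± 0.31, adjusted p = 0.00186). Peg3, which is expressed from the paternal allele, was at 12.8, 32.8, 15.9 and 9.76 CPM and 135, 162, 47.9 and 159.7 CPM (-2.75 ± 0.44, adjusted p = 0.00982). Net1, an exchange factor for small GTPases, was at 57.0, 123, 89.2 and 74.1 CPM and 446, 498, 344 and 645 CPM (-2.50 ± 0.26, adjusted p = 0.00165). Rasd1, a Ras protein induced by dexamethasone, was at 23.8, 71.1, 20.1 and 20.7 CPM and 187, 149, 125 and 129 CPM (-2.29 ± 0.36, adjusted p = 0.00955), with DRF mouse 2 the highest of its group. Unc93a2 (-2.53 ± 0.34, adjusted p = 0.00493), which may share reads with its relative Unc93a, the sialyltransferase St6galnac5 (-2.23 ± 0.21, adjusted p = 0.00145), Hcar1 and Irs2 were the others.

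ZT20, in the dark, is the time at which the NRF mice were inside their feeding period and the DRF mice outside theirs. Of the 1130 genes called at ZT8, 1068 differed between the ZT8 and ZT20 comparisons in the test of the interaction, which called 4191 of 14491 genes (28.9%) over 16 libraries. That test holds the same ZT8 libraries on which the 1130 were called, so nothing is read from this share. In 1039 of the 1068 the fitted difference at ZT20 had the opposite sign. The choice of these genes by both tests favours that sign, so nothing is read from this count either. Pck1 averaged 168 ± 169 CPM (mean ± SD, n = 4) under DRF and 2278 ± 1044 CPM under NRF at ZT8, and 2049 ± 685 CPM and 57.1 ± 15.3 CPM at ZT20. Ppp1r3b averaged 436 ± 203 CPM and 18.2 ± 11.3 CPM at ZT8, and 51.7 ± 26.3 CPM and 597 ± 126 CPM at ZT20. Both had changed places between the times. Nr1d1 was at 45.5 ± 7.09 CPM under DRF and 4.48 ± 0.301 CPM under NRF at ZT20, a difference of 3.07 ± 0.15.

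Arntl under DRF was at 20.8 ± 3.81 CPM at ZT8 and 15.8 ± 2.30 CPM at ZT20, whereas under NRF it was at 3.26 ± 0.637 CPM and 34.4 ± 2.65 CPM. Dbp under DRF was at 57.7 ± 6.82 CPM at ZT8 and 32.7 ± 4.72 CPM at ZT20, and under NRF at 178 ± 37.9 CPM and 8.33 ± 2.35 CPM. Among the 1130 genes called at ZT8, 29 passed the interaction with the same sign at ZT20 and 62 did not pass it. A few of the named genes called at ZT8 kept their sign. Hsd11b1 differed by 1.62 ± 0.39 at ZT8 and 1.64 ± 0.32 at ZT20 (interaction adjusted p = 0.979). Mogat2 did not pass the interaction (0.66 ± 0.55 at ZT20, adjusted p = 0.0529), while Podnl1, Ncan, Cdkn1a and Mthfd2 were above 0 at both times and larger at ZT8 by 1.64, 2.03, 2.02 and 0.81.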

How the data were processed

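RNA from VAT of 56 mice was sequenced by the authors as poly(A) RNA, and the 8 libraries of ZT8 were analysed here with those of ZT20 for the interaction. Regimen, time and replicate number came from the labels. Per the submitters' processing notes, reads were aligned with HISAT2 2.0.5 to mm10 and counted with featureCounts 1.5.0-p3. Whether strand was used is not given in the sources used here.

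The deposited value per gene is treated as a score: it is named TPM, but it equals log2(CPM + 1), divided by exon length and rescaled per library. The plan had foreseen either scale. Whole reads and log2(CPM + 1) were recovered with exon lengths of GENCODE M21 (GRCm38) for 25050 of 25939 genes, with lengths taken from the values for 882, and untested for 7 (Fabp4, Car3, Lpl, Fasn, Scd1, mt-Co1 and mt-Cytb). All 203504 values tested at ZT8 lay within 0.02 of a whole read, a share that includes the lengths chosen for it. Only relative depth within the gene reads is known. GENCODE gave a symbol for 25926 genes.

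Genes with a mean of at least 1 CPM over the 8 libraries were fitted in limma 3.58.1 (R 4.3.3) on log2(CPM + 1), pseudocount 1, with an intensity trend and no covariate. Benjamini-Hochberg adjustment ran over all genes tested. The 6-library fit left out DRF mouse 1 and NRF mouse 4. List counts and medians were computed in Python 3.11.15. Named genes were the key genes of the lists, up to 3 called genes per list and direction with the largest difference, and those of the 10 largest rises and falls described in the report. A key gene under 1 CPM was not tested. The members, lists and rules were chosen with earlier results of these data known. Promoters came from RefSeq (27025 genes with an entry). Sqle was among those named only. A few genes are not reported here and were left out of the lists and their counts. Steps were tested on simulated data. Alternatives are given in the closing section. Other tissues were not analysed here.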

Additional observations from a re-analysis of the deposited data

Results flagged for a closer look

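The difference between DRF and NRF at ZT8 departed from that at ZT20 for 4191 of 14491 genes (28.9%, adjusted p under 0.05 in limma, 16 libraries). Among them were 80 of the 93 named genes that could be tested. Of the named genes 67 were called at ZT8, and the test holds the same ZT8 libraries, so nothing is read from their share. A value above 0 means that DRF was higher against NRF at ZT8 than at ZT20. Among the clock and clock output genes, the difference of the differences (log2) was 4.32 for Nfil3, 3.43 for Arntl, 2.58 for Cry1, 2.37 for Npas2, 1.29 for Per2, 1.22 for Clock, -1.10 for Per1, -1.41 for Tef, -2.31 for Per3, -3.21 for Nr1d2, -3.47 for Dbp and -4.97 for Nr1d1. Among the sterol genes, the difference of the differences (log2) was 4.80 for Mvd, 4.07 for Sqle, 3.52 for Insig1, 2.91 for Lss, 2.16 for Hmgcs1, 1.76 for Stard4 and -1.45 for Npc1. Among the lipid synthesis, lipolysis and uptake genes, the difference of the differences (log2) was 6.18 for Angptl8, 5.16 for Scd2, 4.46 for Acly, 2.83 for Mlxipl, 2.69 for Plin2, 2.13 for Dgat2, 1.41 for Srebf1, 1.20 for Lpin1, -1.03 for Pnpla2, -1.07 for Dgat1, -1.24 for Cpt1a, -1.70 for Gpat4, -1.78 for Gpat3, -2.05 for Slc27a1, -2.12 for Lipe, -2.82 for Angptl4, -3.62 for Adrb3, -4.21 for Hcar2 and -4.45 for Hcar1. Among the glucose, pyruvate, NADPH and insulin genes, the difference of the differences (log2) was 8.18 for Ppp1r3b, 3.09 for Bcl6, 3.05 for Hk2, 2.0 for Ppp1r3c, 1.72 for Slc2a4, 0.93 for Mthfd1, -1.48 for Pdk4, -1.62 for Pdk2, -3.11 for Txnip, -4.02 for Irs2 and -9.24 for Pck1. Among the genes of protein production, folding and stress, the difference of the differences (log2) was 3.50 for Hsph1, 2.90 for Hspa8, 2.45 for Dnaja1, 2.08 for Tsr1, 1.92 for Rrp12, 1.71 for Iars, 1.43 for Bop1, 1.29 for Hspa5, 1.28 for Hspa1b, 1.23 for Sdf2l1, 1.12 for Manf, 0.98 for Farsb, 0.92 for Aars, 0.81 for Mthfd2 and -1.38 for Cirbp. Among the remaining genes, the difference of the differences (log2) was 5.88 for Hephl1, 5.04 for Mid1ip1, 5.0 for Osgin1, 4.49 for Cyp1a1, 3.53 for Lep, 3.31 for Apln, 2.57 for Fosl2, 2.03 for Ncan, 2.02 for Cdkn1a, 1.64 for Podnl1, -3.69 for St6galnac5, -4.11 for Zim1, -4.23 for Rasd1, -4.25 for Net1, -4.76 for Unc93a2 and -4.80 for Peg3.

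Dixon's test at the 95% level was run on a log2 scale for 212 sets of 4 values, from genes and marker sums in the same 8 mice. In 18 sets a single mouse lay far from the other 3, where chance gives about 1 in 20. The sets share mice and are not independent, so nothing is read from this count. DRF mouse 1 accounted for several: it was the highest in uterine epithelium markers (955 CPM in sum) and the lowest in the liver list (655 CPM in sum), in Adipoq (1025 CPM), Pnpla2 (1037 CPM), Angptl4 (61.3 CPM), Irs2 (11.2 CPM), Nr1d1 (46.3 CPM) and Arntl (15.1 CPM). NRF mouse 3 was the highest in Nr1d2 (151 CPM), Plin2 (427 CPM), Farsb (42.3 CPM) and Bop1 (32.1 CPM) and the lowest in Arntl (2.31 CPM) and Peg3 (47.9 CPM). The others were DRF mouse 3, highest in Bcl6 (69.3 CPM) and Tef (169.9 CPM), and DRF mouse 2, highest in Rasd1 (71.1 CPM). NRF mouse 2 was also among them, lowest in Ppp1r3c (16.7 CPM). On this log2 scale NRF mouse 4 was not among the 18. Its skeletal muscle markers still summed to 715 CPM, against 14.3 to 30.8 CPM in the other NRF mice. Missing the level of the test on this scale does not make that library like the others.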

How the results depend on the processing

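Of the 628 genes higher and 502 lower at ZT8, leaving out 1 library at a time gave 143 to 1357 higher and 144 to 882 lower. Fitting all 56 libraries gave 2497 and 1871, library quality weights 2673 and 1900 (weight 0.169 for DRF mouse 1 and 4.02 for DRF mouse 4), no filter on low values 372 and 325, and log2(deposited value + 1) 232 and 278, where 45.5% of calls were higher against 55.6%. The cause of these shifts was not tested. Scaling by median of ratios or quantiles, a pseudocount of 0.25, a mean of at least 5 CPM, robust empirical Bayes, voom and the fit on 6 libraries stayed within 1.5 times the counts. The 4191 genes of the interaction stayed between 3543 and 5289 in all fits. Whether the replicate numbers pair the mice cannot be settled from 4 correlations. Correlations of deviations between same-numbered mice ran from -0.0038 to 0.25, with 2 of 4 above 0.1. Those between mice of different numbers ran from -0.27 to 0.27, and not every mouse correlated best with its own number. The fit with a replicate block gave 629 higher and 460 lower, and 4672 for the interaction. None of the 67 called genes taken up by the rule for named genes changed direction in any alternative, and 34 kept the call in every one. Uncalled genes near 0 did change sign. Over single omissions and the fit on 6 libraries, Fos ran from -0.47 to 0.16, Lpl from -0.11 to 0.43, Pdk4 from -0.67 to 0.22 and Trib3 from -0.62 to 0.036. Quality weights gave 0.027 for Fos, and log2(deposited value + 1) gave -0.0012 for Lpl. De novo lipogenesis calls ranged from 1 to 12 of 16 over the alternatives.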

Other observations

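After Zim1 and Peg3 were seen among the largest falls, 17 imprinted genes were looked up, so their choice followed their values. Of the 16 tested, 4 were lower and 2 higher. Without the 2 that prompted the list, 2 of 14 were lower and 2 higher (median -0.23), a choice made after the values were seen, beside 3.46% and 4.33% of all genes. Plagl1, a zinc finger factor, was at 23.1, 36.1, 37.7 and 24.9 CPM in DRF mice 1 to 4 and 75.4, 81.5, 83.9 and 79.4 CPM in NRF mice 1 to 4 (-1.40 ± 0.16, adjusted p = 0.00306). Grb10, an adaptor that restrains insulin receptor signalling, was at 86.7, 88.0, 79.6 and 84.8 CPM under DRF and 129, 123, 99.3 and 147 CPM under NRF (-0.54 ± 0.13, adjusted p = 0.0386; 0.0684 on 6 libraries). Mest, which is linked to fat cell enlargement, was higher, at 17.1, 39.3, 33.0 and 21.6 CPM and 12.4, 8.86, 11.0 and 11.1 CPM (1.22 ± 0.24, adjusted p = 0.0197). Peg10 was also higher (1.02 ± 0.22, adjusted p = 0.0289). Neither H19 (-0.84 ± 0.43, adjusted p = 0.263) nor Meg3 (-0.13 ± 0.34, adjusted p = 0.844) was called, and Nnat varied from 19.6 to 316 CPM among DRF mice.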
